A study of Mus musculus with 5 samples.

Results

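Cells with abundant T mRNA and no detected E-cadherin mRNA were examined in mouse epiblast stem cells (EpiSCs) that had been driven towards mesoderm at different doses of FGF2. T (Brachyury, chr17:8434423-8442496, plus strand, GRCm38) encodes the T-box factor that marks the primitive streak and nascent mesoderm. Cdh1 encodes E-cadherin, and Tbx6 encodes a T-box factor of presomitic mesoderm. A cell was selected on 3 genes, by raw counts of unique molecular identifiers (UMIs, which count captured mRNA molecules): at least 8 T UMIs, at most 1 Tbx6 UMI and 0 Cdh1 UMIs. This rule found 567 cells among the 8952 kept cells of the 4 FGF2 libraries, and 10653 cells were kept in the whole series of 5 libraries. These 567 T-high Cdh1-negative cells are called members, and their levels of T, Tbx6 and Cdh1 are a product of the selection.

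EpiSCs are cells derived from the post-implantation epiblast, here a line from an embryo of the 129 background. All cells had been kept for 3 days in N2B27 medium with 1 µM CHIR99201, an activator of the Wnt pathway, and 8 ng/ml BMP4. They had been given no FGF2, 0.75 ng/ml FGF2, 3 ng/ml FGF2 or 12 ng/ml FGF2, and another library had received 30 nM AZD4547, an inhibitor of FGF receptors. One 10x Genomics 3′ library was made per condition, so no difference between doses has a replicate check, no p-value was computed, and all intervals given below are 95% intervals for counting error only.

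During gastrulation, epiblast cells move through the primitive streak, lose their epithelial junctions and leave as mesenchymal mesoderm or endoderm. Snai1 represses E-cadherin in this transition, Cdh2 (N-cadherin) replaces E-cadherin, and FGF signaling through Fgf8 and Fgfr1 is needed for cells to leave the streak. T, Mixl1, Eomes and Mesp1 are markers of streak and nascent mesoderm, while Sox2, Nkx1-2 and Cdx2 mark the caudal epiblast, from which trunk tissue is later added.

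The kept cells of the libraries without FGF2 and with 0.75, 3 and 12 ng/ml FGF2 held 56812075, 81538748, 64607114 and 70776993 UMIs, respectively. Members were 16 of 1696 kept cells without FGF2, which is 0.943% (exact binomial interval 0.540 to 1.53%). They were 140 of 2725 cells, or 5.14% (4.34 to 6.03%), at 0.75 ng/ml. At 3 ng/ml they were 213 of 2125 cells, or 10.0% (8.78 to 11.4%), and at 12 ng/ml 198 of 2406 cells, or 8.23% (7.16 to 9.40%). The share was therefore lowest without FGF2, intermediate at 0.75 ng/ml and highest at 3 and 12 ng/ml, whose intervals overlapped. None of the 1701 kept cells of the AZD4547 library met the rule, and the highest count of T UMIs in any of them was 5. A count of 0 was taken to allow up to 3 cells, a share of up to 0.176%, which is not a binomial interval like those above.

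Among all cells with at least 8 T UMIs in the 4 libraries, 1593 in number, 1287 had at most 1 Tbx6 UMI. Of these, 567 had no Cdh1 UMI and 720 had at least 1, and the latter are called T-high Cdh1-positive cells. The T-high Tbx6-positive cells, with at least 2 Tbx6 UMIs and no Cdh1 UMI, were 215 in number. Those 2 populations are the nearest to the members, and they serve below as comparisons beside all other kept cells of the same library.

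**Figure D1:**
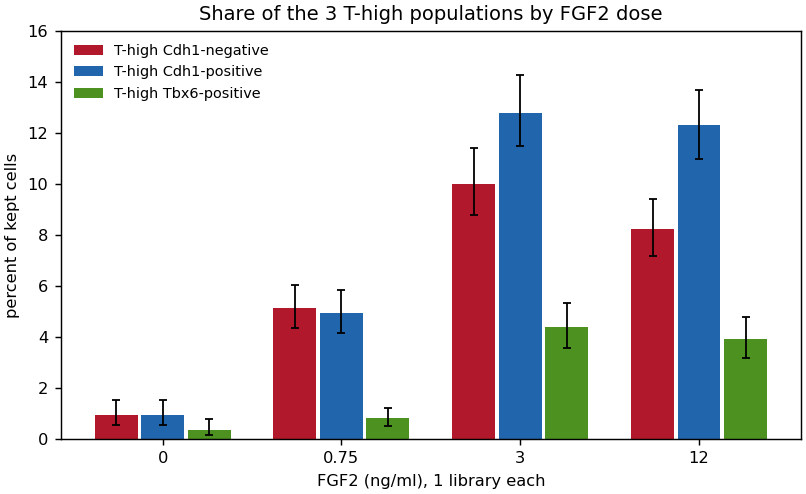
Percent of kept cells (y axis) in the 3 T-high populations at each FGF2 dose (x axis, ng/ml, 1 library per dose), with exact binomial 95% intervals as bars. The T-high Cdh1-negative cells make up 0.943% of the cells without FGF2 and between 5.14 and 10.0% at the 3 doses of FGF2.

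Members differed little from the other cells in general quality. Their median UMI count was 34068.5, 31362, 30463 and 29851 in the order of dose, against 29608.5, 27354, 28218.5 and 27282 in the other cells, so they were somewhat deeper in each library. Their median share of mitochondrial UMIs was 4.27, 3.70, 4.04 and 3.95%, and that of the other cells 4.13, 3.99, 4.21 and 4.16%. Members with more than 60000 UMIs numbered 0, 4, 4 and 4, and doublets were not removed here. Only 4 kept barcodes occurred in more than 1 FGF2 library, which involved 2 members.

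Levels were also compared next to the thresholds. Members with 8 or 9 T UMIs (148 cells) had an Fgf8 level of 239 CPM (the UMIs of a gene summed over cells, per 1000000 of all their UMIs; a 3′ library counts each mRNA once whatever its length), and cells that missed the rule with 6 or 7 T UMIs (240 cells) had 173 CPM. Krt18, a keratin of simple epithelia, stood at 56.0 CPM inside and 33.7 CPM outside that border. Cells with exactly 1 Cdh1 UMI (249 cells) had 185 CPM of Krt18 and 238 CPM of Epcam, whereas the 83 members with at least 20 T UMIs had 115 CPM of Krt18 and 158 CPM of Epcam. Members with 1 Tbx6 UMI (163 cells) had 46.2 CPM of Dll1, and cells with exactly 2 (97 cells) had 98.5 CPM.

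Members carried more mRNA of streak genes and less of epithelial genes than the other cells of their library. A gene was called when it reached 20 CPM in either population and differed by at least 1.5 times, in the same direction, in each of the 3 libraries with at least 20 members (0.75, 3 and 12 ng/ml). By this rule 33 of 5656 genes were higher in members, 0.583% of those tested, and 52 were lower, 0.919%. Since the members were selected on T, Tbx6 and Cdh1 in the same cells, these contrasts are a description of the selected cells and were not tested. The median log2 ratio over all tested genes was 0.03, 0.00 and -0.00 at 0.75, 3 and 12 ng/ml.

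Fgf8, the main FGF ligand of the streak (chr19:45736798-45742915, minus strand), stood at 254, 226, 276 and 304 CPM in members in the order of dose. In the other cells it was 22.2, 62.9, 142 and 147 CPM. The level in members was thus above that of the other cells in all 4 libraries, by 11.4 times (9.56 to 13.6) without FGF2, 3.60 times (3.36 to 3.85) at 0.75 ng/ml, 1.95 times (1.85 to 2.05) at 3 ng/ml and 2.07 times (1.97 to 2.18) at 12 ng/ml. After each cell had been thinned to 10000 UMIs, 81.2, 75.7, 84.5 and 83.8% of members had an Fgf8 UMI, against 4.82, 12.2, 22.1 and 29.1% of cells without any T UMI. The latter cells are the opposite end of the selection on T and do not stand for all other cells.

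Rspo3, a secreted enhancer of Wnt signaling that is expressed in the streak and presomitic mesoderm (chr10:29452416-29535867, minus strand), was the most abundant of these genes. It stood at 828, 624, 664 and 628 CPM in members and at 85.5, 192, 381 and 413 CPM in the other cells. The ratio went from 9.69 (8.80 to 10.6) without FGF2 to 1.52 (1.47 to 1.57) at 12 ng/ml, just above the rule. Rspo3 was no longer called with at least 12 T UMIs, with no Tbx6 UMI, with at most 1 Cdh1 UMI, at a ratio of 2 and against other cells with a T UMI. With at most 1 Cdh1 UMI the library without FGF2 held 20 members, so all 4 libraries then had to meet the rule. Cyp26a1, which degrades retinoic acid (chr19:37697798-37701536, plus strand), had 71.2, 68.8, 88.3 and 76.5 CPM in members and 9.34, 17.8, 29.7 and 34.1 CPM in the other cells. It was, like the transporter gene Slco5a1, at least 2 times higher in each of the 3 libraries, which only 3 genes were.

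Mixl1, a homeobox factor of the streak that is needed for endoderm and mesoderm (chr1:180693043-180697034, minus strand), was lower in abundance, with 10.4, 27.5, 43.6 and 53.1 CPM in members and 1.85, 6.63, 19.4 and 26.8 CPM in the other cells. The level without FGF2 rested on 6 UMIs in 3 members. Evx1, a homeobox gene of the posterior streak, was also higher, with 43.4, 46.4, 52.6 and 50.1 CPM against 11.1, 22.2, 33.8 and 30.9 CPM. Wnt5b, a Wnt ligand of the streak, had 57.3, 64.7, 93.0 and 81.3 CPM against 12.7, 27.9, 51.0 and 51.9 CPM, and Lefty1, an inhibitor of Nodal, 12.2, 22.1, 28.5 and 33.1 CPM against 2.81, 7.54, 17.4 and 20 CPM. Wnt3a, the ligand that maintains T in the streak, had 22.6, 13.8, 25.9 and 25.6 CPM against 1.01, 3.98, 11.1 and 10.1 CPM and was not tested, as it did not reach 20 CPM at 0.75 ng/ml.

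**Figure D2:**
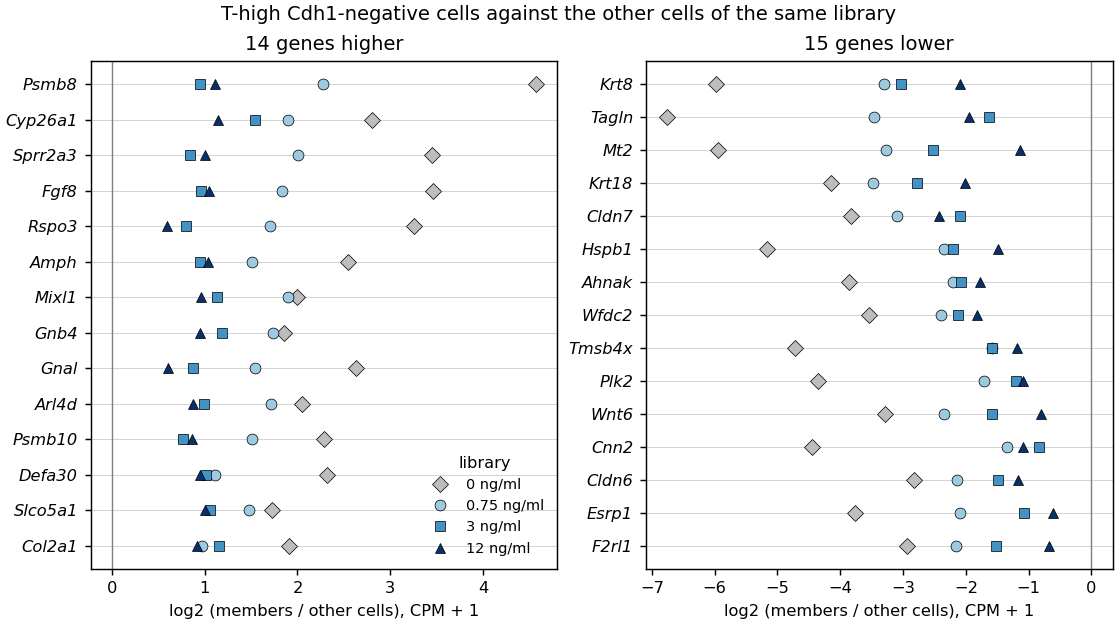
Log2 ratio of the level in members to that in the other cells (x axis, computed on CPM + 1) for 14 genes called higher and 15 called lower, from the 15 with the largest mean ratio in each direction (y axis), 1 symbol per library. For all 29 genes the 4 libraries lie on 1 side of 0, and for all of them the library without FGF2 (16 members) lies farthest from 0. The mean used for the ranking included that library, so the choice of genes favored those far from 0 in it.

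Genes that act in antigen processing were among the 33 higher genes. They were picked from the called genes after their values had been seen, so no count over a list stands beside them. Psmb8, a subunit of the immunoproteasome (chr17:34197721-34201454, plus strand), had a mean log2 ratio of 2.23 over the 4 libraries and of 1.45 without the library of 16 members, where Cyp26a1 had 1.85 and 1.53. Its level was 79.9, 49.0, 35.1 and 49.1 CPM in members and 2.40, 9.33, 17.7 and 22.2 CPM in the other cells. The value without FGF2 came from 46 UMIs in 5 of 16 members, 67.4% of them in a single cell. Psmb10, another subunit, had 170, 153, 138 and 157 CPM against 34.1, 53.2, 80.1 and 86.5 CPM, and Psme2, a subunit of the proteasome activator, 316, 359, 318 and 361 CPM against 122, 149, 193 and 209 CPM.

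Erap1, a peptidase that trims peptides for presentation, and Irf1, a transcription factor of the interferon response, were called higher as well, at 27.7, 23.6 and 22.2 CPM and at 35.5, 29.7 and 34.2 CPM in the members of the 3 libraries with FGF2. Erap1 lost its call with no Tbx6 UMI and with at most 5% mitochondrial UMIs, and Irf1 with the library without FGF2 added. Psme1, Tapbp, B2m and H2-K1 were tested and not called, though Psme1 was called with at least 12 T UMIs, with no Tbx6 UMI, with at most 1 Cdh1 UMI and without the 3 ng/ml library, and Tapbp with at most 1 Cdh1 UMI. Psmb9, Tap1 and Tap2 stayed below 20 CPM. Psme1, the partner of Psme2, had 322, 270 and 321 CPM in these members and 177, 191 and 207 CPM in the other cells. Of the presenting molecules, B2m had 42.4, 47.3 and 56.8 CPM in these members and 52.6, 54.6 and 63.7 CPM in the other cells, and H2-K1 had 19.4, 27.4 and 31.2 CPM against 29.3, 32.2 and 34.3 CPM. In T-high Cdh1-positive cells Psmb8 stood at 74.1, 55.2 and 68.6 CPM, above its level in members. Irf1, Tapbp and the presenting molecules H2-K1 and H2-D1 were lower in members than in these cells by the call rule. With at most 1 Cdh1 UMI in members and more than 1 in the Cdh1-positive cells, only Tapbp of them was still called. Tapbp lost its call with at least 12 T UMIs. Thinned to 10000 UMIs, 20, 18.3 and 22.8% of these members had a Psmb8 UMI, and 0.494, 0.743 and 2.35% of cells without a T UMI. Cells without a T UMI are the opposite end of the selection on T, so these shares do not describe all other cells.

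The promoters of 23 of the 33 higher genes were found in the RefSeq table for GRCm38.p6, and 2 are printed, one of the antigen processing group and one of a Wnt ligand, because each holds a motif of a signaling pathway. Each window covers the 250 bases before an annotated start, 5′ to 3′ on the strand of the gene. Motifs were chosen with the expression values known and searched on both strands. Capitals mark TTCNNNGAA, the core bound by STAT factors, in Irf1, and CTTTGAT, a TCF/LEF core, in Wnt5b.
Irf1: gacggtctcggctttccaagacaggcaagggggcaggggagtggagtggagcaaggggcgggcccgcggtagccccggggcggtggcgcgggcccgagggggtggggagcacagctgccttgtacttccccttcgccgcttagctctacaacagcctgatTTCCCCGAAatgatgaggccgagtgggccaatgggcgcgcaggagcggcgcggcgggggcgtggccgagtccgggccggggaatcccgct
Wnt5b: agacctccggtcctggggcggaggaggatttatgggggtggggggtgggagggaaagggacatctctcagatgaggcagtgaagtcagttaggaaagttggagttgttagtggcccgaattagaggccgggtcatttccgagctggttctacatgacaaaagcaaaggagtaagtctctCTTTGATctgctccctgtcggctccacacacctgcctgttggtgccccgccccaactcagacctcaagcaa

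The Irf1 window is chr11:53769764-53770013 (plus strand) and overlaps no annotated gene. That of Wnt5b is chr6:119449387-119449636 (minus strand), before the third of its starts, and lies in an intron of the longer transcripts. TTCNNNGAA was found for 5 of the 23 genes (Amot, Irf1, Psmb8, Sprr2a3 and Wnt5b) and in 7.02% of the 32851 windows of the table, CTTTGAT for 2 of 23 and in 3.21%, the T-box core GGTGTGA for 0 of 23 and in 3.33%, and the repeat bound by IRF factors (GAAA, any 2 bases, GAAA) for 0 of 23 and in 2.98%. Of the 43 lower genes in the table, 2, 0, 2 and 2 held these motifs in the same order. Genes with several starts have several windows, so shares of genes and of windows are not on 1 footing. A match gives only the presence of the letters, and which start the cells used was not measured.

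Among the 15 genes with the largest ratios were also Sprr2a3, Amph, Gnb4, Gnal, Arl4d, Defa30, Slco5a1 and Col2a1. Gnb4 and Gnal encode subunits of G proteins. Col2a1, a fibrillar collagen, had 59.0, 36.1, 38.6 and 26.7 CPM in members and 15, 18.0, 16.9 and 13.7 CPM in the other cells. Sprr2a3 and Defa30 belong to families of near-identical genes, so that their counts are uncertain. Their levels in members ran from 93.8 to 213 CPM and from 26.0 to 44.4 CPM, respectively.

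The genes lower in members included keratins and junction genes. Krt8 (chr15:101996698-102004482, minus strand) and Krt18 (chr15:102028180-102032027, plus strand) encode the keratin pair of simple epithelia. Krt8 stood at 12.2, 63.0, 43.0 and 81.1 CPM in members and at 832, 632, 359 and 352 CPM in the other cells. That was 68.4 times lower (33.2 to 170) without FGF2, where members held 7 UMIs, and 10.0 (8.94 to 11.3), 8.35 (7.44 to 9.40) and 4.34 times lower (3.97 to 4.75) at the 3 doses. Both keratins have processed pseudogenes, so that their counts are somewhat uncertain. Krt18 was 18.0 (12.9 to 25.8), 11.3 (10.1 to 12.7), 6.99 (6.28 to 7.81) and 4.08 times lower (3.74 to 4.47). Cldn6 and Cldn7, which encode tight junction claudins, Esrp1, a splicing regulator of epithelia, and St14, an epithelial protease, were lower too.

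The keratin mRNA of members was unevenly spread. At 12 ng/ml 54.0% of the members had a Krt8 UMI, but the 10 members with the highest counts held 50.7% of the 507 UMIs, and for Krt18 the 10 highest held 52.4% of 500 UMIs. Fgf8 was more even, with 16.4% of 1898 UMIs in its 10 highest members.

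Epcam, an epithelial adhesion molecule (chr17:87635979-87651129, plus strand), was lower but far from absent. It had 64.3, 117, 105 and 133 CPM in members against 335, 341, 247 and 226 CPM in the other cells. Thinned to 10000 UMIs, 37.5, 45.0, 46.0 and 52.3% of members had an Epcam UMI, while 22.7, 31.2 and 27.7% of T-high Tbx6-positive cells had one at 0.75, 3 and 12 ng/ml. In the other cells the share was 58.1% at 3 ng/ml and 52.0% at 12 ng/ml, so that at 12 ng/ml it was close to that of members. Of 28 epithelial genes, 24 were detected (at least 5 CPM in members or others of any library), and 11 of them were tested outside the selection genes. Among these 7 were lower and 0 higher in members. With at least 12 T UMIs, with at most 1 Cdh1 UMI, and against other cells with a T UMI, Epcam, Esrp1 and St14 were no longer called and 4 of the 7 were. Esrp1 and St14 were also lost with no Tbx6 UMI and among cells of 20000 to 40000 UMIs, and St14 without cells above 60000 UMIs. Under the rule as given, the median log2 ratio of the detected genes was -1.81, -1.27 and -0.91 at 0.75, 3 and 12 ng/ml.

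The lower genes also included Tagln, Tmsb4x, Mt2 and Hspb1. Tagln (transgelin) had 3.47, 9.03, 7.32 and 10.9 CPM in members and 482, 110, 24.7 and 45.0 CPM in the other cells. Tmsb4x, an actin-sequestering peptide, had 83.4, 287, 178 and 299 CPM against 2222, 865, 537 and 680 CPM, and Cnn2 (calponin) and Ahnak were lower as well. The metallothionein Mt2 had 3.47, 20, 13.2 and 21.8 CPM against 274, 202, 80.1 and 49.1 CPM, and the small heat shock protein gene Hspb1 8.68, 29.9, 12.1 and 25.6 CPM against 346, 157, 59.3 and 73.9 CPM. Wfdc2, Plk2, the Wnt ligand gene Wnt6 and the receptor gene F2rl1 complete the 15 with the largest ratios.

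Immediate early genes, which respond within minutes to signals and to handling of cells, were among the lower genes. Jun, Junb, Jund and Egr1 were lower in members, 4 of 7 tested genes of a list of 13, and 0 were higher. Of the 4, only Egr1 was still called with at least 12 T UMIs and against other cells with a T UMI. Only Jund and Egr1 were called among cells of 20000 to 40000 UMIs. Junb also lost its call with no Tbx6 UMI, and Jun with at most 1 Cdh1 UMI and without cells above 60000 UMIs. At a minimum of 50 CPM only Jund was called, and at a ratio of 2 none was. Junb had 8.82, 15.5 and 20.5 CPM in the members of the 3 FGF2 doses and 45.1, 26.3 and 32.9 CPM in the other cells. Egr1, also a target of ERK, had 10.5, 12.6 and 16.8 CPM against 28.0, 23.5 and 30.7 CPM. Whether dissociation of the cells plays a part in these values was not tested.

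The count of called genes depended on the comparison cells. When only the other cells with at least 1 T UMI were used, 8 genes were higher and 16 lower, and 8 and 13 of these were among the 33 and 52. The higher genes included Fgf8, Cyp26a1, Mixl1, Amph, Arl4d, Gnb4 and Slco5a1, and Rspo3 and the genes of antigen processing were no longer among them. Krt8, Krt18, Cldn6, Cldn7 and Egr1 were among the 16 lower genes, as were Dll1 and Cited1, genes of presomitic mesoderm that were not called against all other cells. Cyp26a1 among the higher and Krt8, Krt18, Cldn6, Hspb1 and Ahnak among the lower genes were called under each alternative. Fgf8, Gnb4 and Amph lost the call only at a ratio of 2, and Slco5a1, Cldn7, Mt2 and Wfdc2 only at a minimum of 50 CPM. Losses of Rspo3, Evx1, Mixl1, Erap1, Irf1 and the epithelial and immediate early genes are given with those genes. Other named genes lost the call under changes to the selection. With at least 12 T UMIs these were Gnal, Wnt6 and F2rl1, with no Tbx6 UMI F2rl1, with at most 1 Cdh1 UMI Arl4d, Itgb8 and F2rl1, with at most 5% mitochondrial UMIs Lefty1, and among cells of 20000 to 40000 UMIs Wnt6 and Plk2. With the library without FGF2 added, Lefty1, Arl4d and Itgb8 lost it. That library also counted with at most 1 Cdh1 UMI, so the changed threshold and the added library cannot be told apart there.

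Genes of the streak list other than those on which the cells were selected were read against each population. Of 17 listed genes 13 were detected and 4 tested, of which Fgf8, Mixl1 and Evx1 were higher than in the other cells. The median log2 ratio to the other cells was 1.26, 0.47 and 0.71 at the 3 doses. Against T-high Cdh1-positive cells 0 of 4 tested genes were called, with medians of -0.34, -0.05 and 0.57, and against T-high Tbx6-positive cells 0 of 7, with medians of -0.10, -0.48 and 0.40. Mesp1, a factor of nascent mesoderm, had 0, 21.9, 18.3 and 25.3 CPM in members and 1.60, 7.56, 13.0 and 15 CPM in the other cells. Eomes, a T-box factor of the early streak, stood at 0, 2.58, 2.34 and 8.32 CPM in members and at 0.249, 0.494, 1.32 and 1.36 CPM in the other cells, and at 12 ng/ml its 52 UMIs came from 10 of 198 cells. Gsc, Cer1, Apln and Mesp2 stayed below 5 CPM in members and other cells.

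Genes of ingression were read next. Snai1, the repressor of E-cadherin (chr2:167538195-167542814, plus strand), had 3.47, 9.89, 11.6 and 22.1 CPM in members and 4.96, 6.48, 14.2 and 23.0 CPM in the other cells. The ratio was 1.53 (1.10 to 2.07) at 0.75 ng/ml, 0.812 (0.636 to 1.02) at 3 ng/ml and 0.961 (0.801 to 1.14) at 12 ng/ml, so that only at 0.75 ng/ml was Snai1 above the other cells beyond counting error. Cdh2 was higher in each library, with 163, 136, 159 and 142 CPM against 56.1, 67.9, 108 and 120 CPM, but did not reach 1.5 times at 3 and 12 ng/ml. The intermediate filament gene Vim had 196, 237, 214 and 288 CPM against 321, 124, 163 and 196 CPM. Of the 17 genes of the ingression list, all were detected and 6 tested, 0 were called in either direction, and the median log2 ratio was 0.45, -0.08 and -0.17.

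The cells also expressed genes of the caudal epiblast and of posterior position. Cdx2, a caudal homeobox gene, stood at 231, 229, 233 and 209 CPM in members and at 108, 186, 217 and 183 CPM in the other cells. Sox2, of pluripotent and neural progenitors, had 36.5, 37.0, 28.7 and 26.6 CPM against 26.9, 34.6, 33.8 and 21.4 CPM, and Nkx1-2 8.68, 27.7, 29.6 and 32.3 CPM against 10.7, 21.4, 29.3 and 19.8 CPM. Of 14 genes of the caudal epiblast 9 were detected and 7 tested, of which only Cyp26a1 was called. Of 16 presomitic and somitic genes 10 were detected and 4 tested, of which only Rspo3 was called, and the median log2 ratio of that list was -0.26, -0.43 and -0.47. Hoxb9, a Hox gene of the trunk, had 389, 244, 246 and 195 CPM against 148, 241, 268 and 231 CPM. Fgf8, Mixl1 and Evx1 of the streak list were thus called higher than in the other cells. Keratins and claudins of the epithelial list were called lower, and the selection itself used T and Cdh1. Of the ingression list 0 of 6 tested genes were called, and of the streak list 0 of 4 against T-high Cdh1-positive cells. The call of Evx1 ended with at least 12 T UMIs, with no Tbx6 UMI, with at most 1 Cdh1 UMI, among cells of 20000 to 40000 UMIs and against other cells with a T UMI. That of Mixl1 ended with at most 1 Cdh1 UMI and with the library without FGF2 added. Both also ended at a minimum of 50 CPM and at a ratio of 2, and that of Fgf8 at the ratio of 2. Snai1, below 20 CPM at 0.75 and 3 ng/ml in both populations, could not be tested by the call rule, and neither could Eomes. The cells are named here only by the genes that selected them.

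Markers of other cell types were detected to different degrees. Of 8 genes of definitive endoderm 2 were detected, Trh and Ttr were at 0 in members, and the most abundant was the gene Cpm (carboxypeptidase M) with 38.2, 29.5, 17.6 and 11.2 CPM in members and 6.31, 8.67, 8.13 and 6.45 CPM in the other cells. The summed level of the endoderm list was 43.4, 38.3, 26.8 and 20.3 CPM. Of 9 hemato-endothelial genes 3 were detected, Kdr and Gata1 were at 0, the most abundant was Lmo2 with 19.1, 20, 21.5 and 29.0 CPM, and the sum was 22.6, 24.9, 25.5 and 35.2 CPM. Of 10 genes of the node and axial mesoderm 4 were detected and Noto was at 0, and their sum of 71.2, 56.6, 53.1 and 43.8 CPM was mostly Ptch1. The lists of lateral plate mesoderm (4 of 12 detected) and of extraembryonic mesoderm and mesenchyme (12 of 15 detected) gave sums of 29.5, 32.5, 19.3 and 19.0 CPM and of 389, 542, 426 and 401 CPM, the latter led by Msx1, and Ahnak and Tagln of the second were lower in members.

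Among 12 genes of surface and extraembryonic ectoderm 9 were detected, with a sum of 261, 288, 273 and 261 CPM that was mostly Cdx2, and Tfap2c and Wnt6 were lower in members. Nes, with 17.4, 24.3, 24.7 and 36.3 CPM, was the most abundant of 8 neurectoderm genes, of which Sox1, Pax6, Neurog2, Otx2 and Olig3 were below 5 CPM. Of 6 genes of primordial germ cells only Prdm1 was detected, at 3.47 to 9.68 CPM. The part of contaminating cells or free RNA in these low values was not tested.

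**Figure D3:**
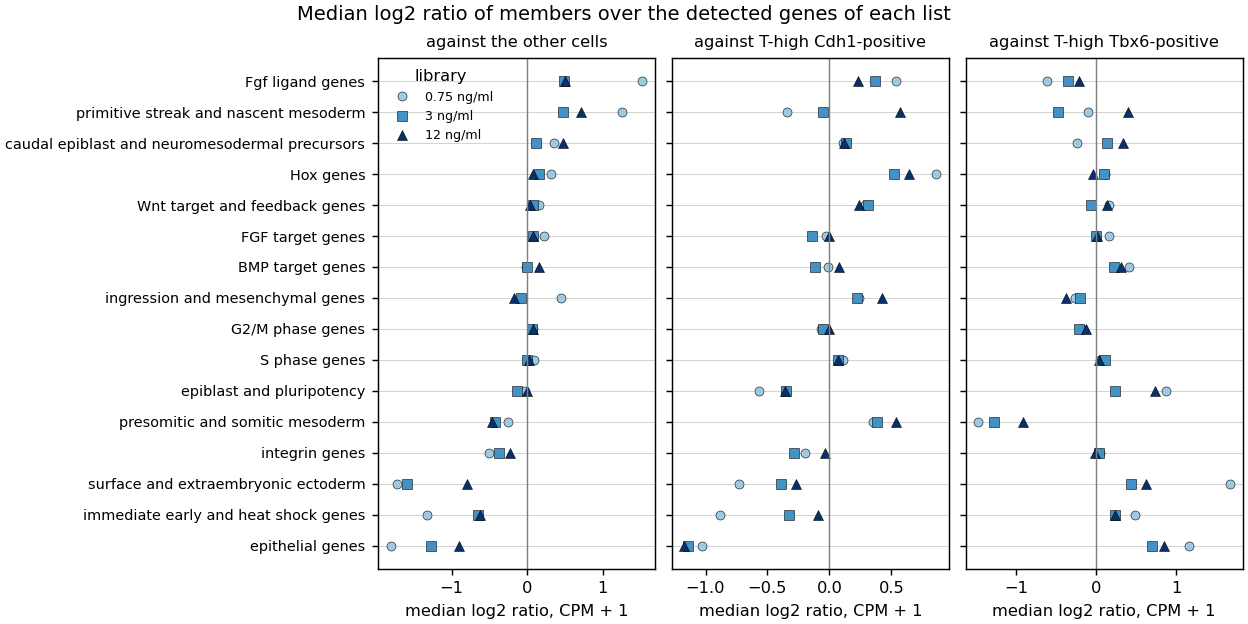
Median log2 ratio (x axis, on CPM + 1) over the detected genes of 16 lists (y axis), for members against the other cells (left), T-high Cdh1-positive cells (middle) and T-high Tbx6-positive cells (right), with 1 symbol for each library that received FGF2. Epithelial genes lie below 0 on the left and in the middle and above 0 on the right, and presomitic genes lie below 0 on the left and right and above 0 in the middle.

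Among FGF ligands, Fgf8 was the only one called against the other cells, with 3 of 8 detected genes tested. Fgf17 had 76.4, 36.3, 70.0 and 65.9 CPM in members against 13.6, 25.7, 48.0 and 47.2 CPM, and Fgf4 and Fgf15 stayed at or below 21.0 CPM in members. Fgfr1, the receptor of mesoderm, had 55.6, 64.7, 55.3 and 69.0 CPM against 64.8, 60, 62.7 and 72.6 CPM. All 14 genes of the FGF target list were detected and 9 tested, with 0 higher and only Egr1 lower. Spry2, a feedback inhibitor, had 38.2, 38.3, 32.9 and 42.4 CPM against 32.0, 43.3, 38.0 and 37.2 CPM, and the phosphatase gene Dusp6 had 41.7, 38.1, 32.8 and 45.0 CPM against 24.2, 35.8, 38.8 and 42.3 CPM. Dusp4, a related phosphatase gene, had 62.5, 85.2, 90.2 and 89.1 CPM against 23.7, 40.3, 61.1 and 57.6 CPM. It missed 1.5 times only at 3 ng/ml, and it was called under 4 alternatives, among them members with no Tbx6 UMI and the rule without the 3 ng/ml library. The median log2 ratio of FGF targets was 0.69 without FGF2 and 0.22, 0.07 and 0.08 at the 3 doses, against 0.03, 0.03, 0.00 and -0.00 for all tested genes.

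Other pathways showed few called genes. Of all tested genes 0.583% were called higher and 0.919% lower. Counts of 0 in lists this short are near that share and are no result about a pathway. Of 14 Wnt targets 8 were tested and 0 called, of 11 BMP targets 7 were tested and 0 called, and of 15 Notch pathway genes 7 were tested and 0 called. The retinoic acid list had Cyp26a1 alone among 5 tested genes, the integrin list Itgb8 alone among 4, and the Nodal list Lefty1 alone among 2. Of 19 Wnt ligand genes 4 were tested, with Wnt5b higher and Wnt6 lower. No gene was called among 3 tested Bmp ligands and antagonists, 1 Fgf receptor, 8 genes of extracellular matrix, 4 Eph receptors and ephrins, 2 Cdk inhibitors and 19 Hox genes.

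Of cell cycle genes none was called: of 42 genes of S phase 38 were tested, of 52 genes of G2/M phase 50, and 0 were called in either list, with median log2 ratios between -0.00 and 0.09 at the 3 doses of FGF2. Without FGF2 the medians were 0.32 for S phase and 0.21 for G2/M phase. Counts of 0 in these lists, too, are near the share of called genes over all tested genes.

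T-high Cdh1-positive cells share with members the threshold on T, and compared with them the members had more mRNA of Hox genes and less of epithelial genes. By the same rule 27 of 5672 genes were higher in members, 0.476%, and 124 were lower, 2.19%. The median UMI count of the Cdh1-positive cells was 44832, 32961, 32387 and 31457.5, above that of members in each library. Their T level was also above that of members, at 411, 481, 546 and 562 CPM against 306, 421, 427 and 456 CPM. The rule used Cdh1 to separate these populations, so the contrast of epithelial genes is a description of the selected cells. The part of depth and of T level in these calls was not tested.

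Crabp1, which binds retinoic acid in the cytoplasm, had the largest mean ratio among the higher genes. It stood at 85.1, 62.6, 27.5 and 30.4 CPM in members and at 8.01, 10.5, 11 and 7.87 CPM in T-high Cdh1-positive cells, a ratio of 5.94 (4.41 to 8.14), 2.50 (1.96 to 3.20) and 3.86 (2.95 to 5.09) at 0.75, 3 and 12 ng/ml. Fgf3, a ligand of the streak and caudal epiblast, had 27.8, 28.0, 36.7 and 37.6 CPM against 0, 9.72, 18.7 and 17.8 CPM. Car14 (a carbonic anhydrase) and Col2a1 were also among the first 10. Igf2, a growth factor gene, was higher than in T-high Cdh1-positive cells, at 84.9, 55.8 and 33.6 CPM against 31.6, 29.4 and 20.8 CPM, though lower than in all other cells. Crabp1 and Igf2 were no longer called with at least 12 T UMIs, nor Igf2 with at most 5% mitochondrial UMIs, while Fgf3, Car14 and Col2a1 were called under each alternative run here.

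Of 39 Hox genes 31 were detected and 19 tested, and 8 of these were higher in members: Hoxb3, Hoxb4, Hoxb9, Hoxc4, Hoxc6, Hoxc8, Hoxc9 and Hoxd4. None was lower. Hoxb9 (chr11:96271457-96276595, plus strand) had 244, 246 and 195 CPM in members at the 3 doses and 128, 125 and 115 CPM in T-high Cdh1-positive cells. Hoxb4 had 79.8, 86.5 and 80.3 CPM against 34.0, 48.8 and 39.7 CPM. The antisense transcript Hoxb5os had 140, 122 and 73.6 CPM against 48.2, 43.7 and 35.6 CPM. Hox genes beyond group 9 were lower in abundance and not called, for instance Hoxa10 with 36.3, 28.8 and 30.4 CPM against 19.2, 23.7 and 20.5 CPM. The median log2 ratio of the list was 0.86, 0.52 and 0.64, against 0.01, -0.01 and 0.01 for all tested genes.

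The genes lower than in T-high Cdh1-positive cells included 9 of the epithelial list. Sfn, an epithelial 14-3-3 protein, was nearly absent from members at 0, 0.645, 0.439 and 1.44 CPM, against 22.7, 27.3, 24.9 and 39.0 CPM. Krt8, Krt18 and Krt19, Cldn7, Mt1, Mt2, Tagln, Hspb1 and Trap1a complete the first 10. Krt18 was 6.02 (5.31 to 6.84), 5.27 (4.71 to 5.93) and 4.13 times lower (3.76 to 4.55) at the 3 doses. Of 12 tested epithelial genes 9 were lower, among them the desmosomal Dsp. Esrp1 lost its call with at most 1 Cdh1 UMI, where the Cdh1-positive cells were those with more than 1. Cldn7 and Trap1a lost it with at most 5% mitochondrial UMIs.

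Of 13 genes of epiblast and pluripotency 10 were detected and 5 tested, of which Pou5f1 and L1td1 were lower and 0 higher. The median log2 ratio of the list was -0.57, -0.35 and -0.36 at the 3 doses, and 3 of the 10 had a mean log2 ratio above 0 over these libraries. Pou5f1 (Oct4) had 3.47, 11.2, 12.1 and 13.3 CPM in members and 46.7, 30.2, 30.8 and 31.8 CPM in T-high Cdh1-positive cells, and L1td1 had 1.74, 17.8, 19.5 and 21.3 CPM against 49.4, 60.8, 60.9 and 74.8 CPM. Fst (follistatin, an antagonist of Activin) and Lefty1 were lower too, but neither was called with at least 12 T UMIs, nor Lefty1 with no Tbx6 UMI or at most 1 Cdh1 UMI. Nanog, at no more than 1.94 CPM in members, had 5.34, 12.4, 4.73 and 7.47 CPM in T-high Cdh1-positive cells. Fgf8 was about equal in the populations, with ratios of 0.927 (0.853 to 1.01), 0.899 (0.849 to 0.953) and 0.966 (0.912 to 1.02) at the 3 doses, and Snai1 was higher in members beyond counting error only at 12 ng/ml, by 1.89 times (1.46 to 2.44).

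**Figure D4:**
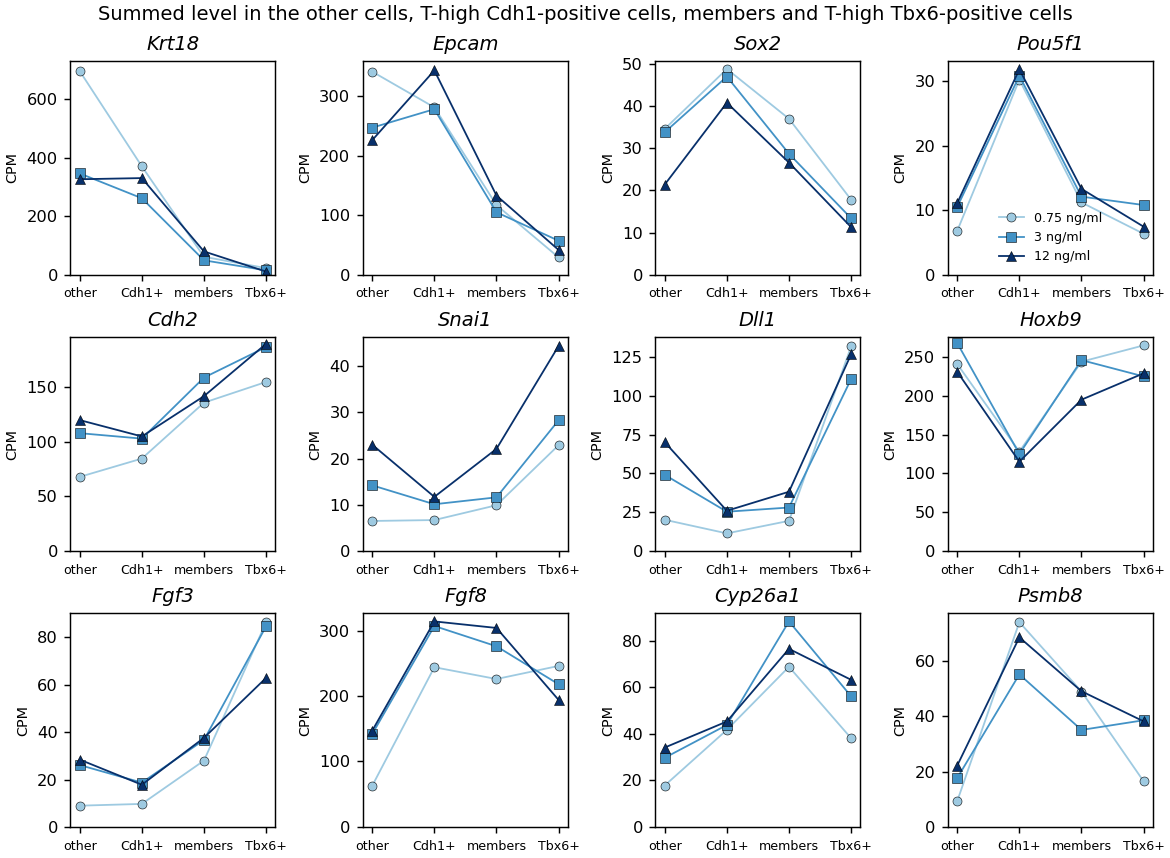
Level in CPM (y axis) of 12 genes in the other cells, T-high Cdh1-positive cells, members and T-high Tbx6-positive cells (x axis), with 1 line for each library that received FGF2. Krt18 and Epcam step down from the Cdh1-positive cells to members and to Tbx6-positive cells, Dll1 and Snai1 are highest in the Tbx6-positive cells, and Cyp26a1 is highest in members in each of the 3 libraries.

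T-high Tbx6-positive cells also lacked Cdh1 UMIs, and members differed from them by genes of presomitic mesoderm and had more mRNA of some epithelial genes. In this comparison 18 of 5594 genes were higher in members, 0.322%, and 26 were lower, 0.465%. It rests on 22, 93 and 94 Tbx6-positive cells at 0.75, 3 and 12 ng/ml and on 6 without FGF2, and the rule used Tbx6.

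Dll1, a Notch ligand of presomitic mesoderm (chr17:15367354-15376872, minus strand), had 36.5, 19.4, 28.0 and 38.2 CPM in members and 51.9, 132, 111 and 127 CPM in T-high Tbx6-positive cells. It was lower in members by 6.82 (5.10 to 9.15), 3.97 (3.33 to 4.75) and 3.31 times (2.82 to 3.90) at the 3 doses. Dll3, a related Notch ligand, had 18.5, 30.3 and 47.7 CPM against 66.0, 83.5 and 83.5 CPM, and Cited1 61.9, 98.7 and 136 CPM against 154, 264 and 288 CPM. Snai1 was lower in members by 2.31 (1.26 to 4.06), 2.45 (1.80 to 3.34) and 2.01 times (1.59 to 2.56). Pdgfra, a receptor of mesenchyme, Fgf3, the ephrin receptor gene Epha4 and the Wnt antagonist gene Dkk1 were lower as well. Plxna2, Rnf213, Btg2, Gbx2, Dact1 and Inka1 complete the 10 with the largest ratios. Snai1, Pdgfra and Fgf3 lost the call with no Tbx6 UMI and with at most 1 Cdh1 UMI, as did Dkk1 and Inka1 with at most 1 Cdh1 UMI. These changes also altered the comparison cells. With no Tbx6 UMI they took in cells with 1 Tbx6 UMI, and with at most 1 Cdh1 UMI cells with 1 Cdh1 UMI. With at least 12 T UMIs Dll3, Epha4, Gbx2 and Btg2 lost it, and Epha4 also with at most 5% mitochondrial UMIs, whereas Dll1 and Cited1 were called under each alternative. Msgn1, a presomitic factor, stayed at or below 2.40 CPM in members.

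The higher genes were led by Krt18, which had 61.7, 49.6 and 80.0 CPM in members and 22.9, 15.5 and 11 CPM in T-high Tbx6-positive cells. Epcam had 117, 105 and 133 CPM against 29.2, 57.2 and 41.7 CPM, 4.01 (2.65 to 6.38), 1.84 (1.57 to 2.16) and 3.19 times (2.66 to 3.84) higher. Cldn6, Krt8 and the laminin receptor gene Itga6 were higher too. Sox2 had 37.0, 28.7 and 26.6 CPM against 17.8, 13.4 and 11.3 CPM. The ligand genes Tgfb2 and Bmp4, Foxo4, the glucose transporter gene Slc2a3, Tpd52 and Rgs17 were the others among the first 10. With no Tbx6 UMI, where cells with a single Tbx6 UMI moved to the comparison cells, 9 of the 18 were still called. Sox2, Bmp4, Foxo4 and Tpd52 were not. Krt8 lost its call with at least 12 T UMIs and with at most 1 Cdh1 UMI, and Itga6 and Tpd52 with at most 5% mitochondrial UMIs. Krt18, Epcam and Cldn6 were called under each alternative. Of 19 tested Hox genes 0 were called here, and the median log2 ratio of the Hox list was 0.11, 0.10 and -0.04.

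The comparisons placed members between the other 2 T-high populations for some genes and not for others. Of 124 genes lower than in T-high Cdh1-positive cells, 7 were among the 18 higher than in T-high Tbx6-positive cells, which is 5.65% of the former and 38.9% of the latter. Only Fgf3 was among both the 27 genes higher than in Cdh1-positive and the 26 lower than in Tbx6-positive cells. Both comparisons share the members, so no test of this overlap was made.

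Within the members, genes of different programs were found together in some cells. Of 566 members thinned to 10000 UMIs, 177 had both an Epcam and a Cdh2 UMI, or 31.3%, and the product of the separate shares within libraries gives 200 cells. Both Sox2 and Dll1 were found in 20 members, where the product gives 24.4, and both Hand1 (a factor of lateral and extraembryonic mesoderm) and Sox2 in 19, where it gives 29.3. Both Krt8 and Krt18 were found in 78 members, where it gives 49.1, both Dll1 and Dll3 in 37, where it gives 26.0, and both Sox2 and Epcam in 75, where it gives 59.9. In counts this sparse such ratios, from 0.649 to 1.59, are a description only. Without thinning, 336 of 567 members had both Epcam and Cdh2.

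Some of the higher genes varied less with FGF2 dose in members than in the other cells. Rspo3 stood between 624 and 828 CPM in members across the 4 libraries and between 85.5 and 413 CPM in the other cells. Cyp26a1 ran from 68.8 to 88.3 CPM in members and from 9.34 to 34.1 CPM in the other cells. Col2a1 went the other way, with 26.7 to 59.0 CPM in members and 13.7 to 18.0 CPM in the other cells. The other cells include, at higher doses, more cells with T mRNA. The T level of the other cells was 23.8, 72.8, 178 and 184 CPM, and the cells without any T UMI numbered 1279, 1434, 542 and 429.

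**Figure D5:**
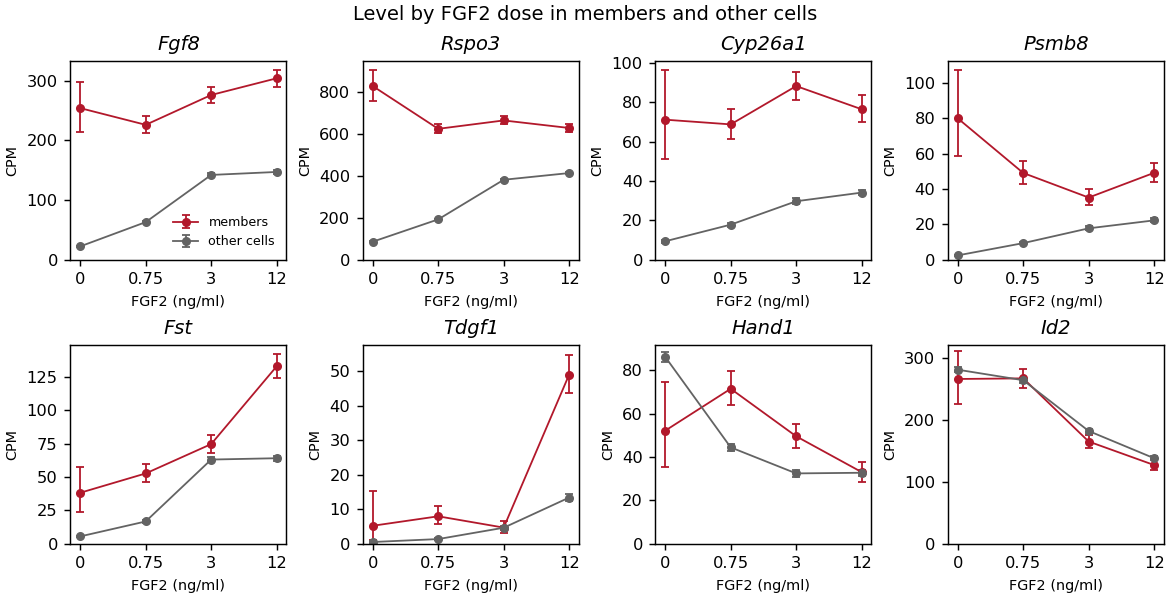
Level in CPM (y axis) of 8 genes by FGF2 dose (x axis, ng/ml, 1 library each, evenly spaced) in members (red) and the other cells (grey), with exact Poisson 95% intervals. Fgf8, Rspo3, Cyp26a1 and Psmb8 lie above the other cells at each dose, Id2 has nearly the same values in both, and Tdgf1 is at 49.1 CPM in members at 12 ng/ml.

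Members at 12 ng/ml were compared with the 16 members without FGF2. Of 6077 genes 482 were higher, 7.93%, and 435 lower, 7.16%, counts that rest on 575814 UMIs at the low dose. In the other cells 220 of 6121 genes were higher, 3.59%, and 443 lower, 7.24%, between the same libraries. Single cells decided some values: of the 18 UMIs of Olfr1423 without FGF2, 94.4% lay in 1 cell, of the 16 of Alpk2 93.8% and of the 42 of Spata7 83.3%. Mesp1 had 0 UMIs in the 16 members, where 3 UMIs would be 5.21 CPM, and 25.3 CPM at 12 ng/ml, so it was at least 4.85 times higher against that floor. L1td1, Perp, Tdgf1, Slc16a3, Mt1 and Krt8 were also higher at 12 ng/ml, with 1 to 7 UMIs each in the members without FGF2. Igf2 (153 against 33.6 CPM), Hoxb5os (299 against 73.6 CPM), Depdc1b, Cpm and Stra6 were lower at 12 ng/ml.

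The comparison of 12 with 0.75 ng/ml, chosen after the data had been seen, rests on 198 and 140 members. Of 5874 genes 81 were higher at 12 ng/ml, 1.38%, and 58 lower, 0.987%. The same contrast in the other cells gave 121 and 153 of 5963 genes. Of the genes higher at 12 ng/ml, 34 were shared, 42.0% of the list of members and 28.1% of that of the other cells, and of those lower 19, or 32.8 and 12.4%.

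Id2, a target of BMP signaling, had 267, 165 and 127 CPM in members at the 3 doses and 264, 182 and 138 CPM in the other cells, so that it was lower at the higher doses in both. Hand1 had 71.4, 49.5 and 33.0 CPM in members and 44.4, 32.4 and 32.7 CPM in the other cells. Tshz1 and Igf2 were lower at 12 ng/ml in members, and Unc5c, a netrin receptor gene, had 29.2, 15.2 and 10.1 CPM against 6.93, 8.39 and 8.06 CPM. Slc6a8, Cpm and Magi3 complete the 8 with the largest ratios.

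Among the genes higher at 12 ng/ml, Fst had 52.7, 74.7 and 133 CPM in members at the 3 doses and 16.7, 63.1 and 64.1 CPM in the other cells. Arl4d had 30.5, 58.4 and 72.2 CPM and Dll3 18.5, 30.3 and 47.7 CPM. Tdgf1 (Cripto, a co-receptor of Nodal) had 7.96, 4.68 and 49.1 CPM, the largest ratio of the list, yet at 12 ng/ml its 307 UMIs lay in 13 of 198 members, and the 10 highest held 98.4% of them. Lhx1 was also concentrated, with 77.1% of its 157 UMIs in 10 members. Cabp1 and Aplnr were also among the 8 with the largest ratios, and 38.9% of members had an Aplnr UMI at 12 ng/ml and 18.6% at 0.75 ng/ml.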

How the data were processed

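mRNA of single EpiSC-derived cells was sequenced as 10x Genomics 3′ libraries. The authors aligned reads to mm10 with Cell Ranger (the matrix headers name version 5.0.1, the study's methods an earlier one) and deposited raw UMI counts per gene and barcode, without normalization. Per the labels, 1 library was made per condition. No doublet caller was used. Barcodes with at least 2500 genes and at most 10% mitochondrial UMIs were kept. Members and gene lists were chosen with earlier results of these data known, and motifs, the antigen processing group and the comparison of 12 with 0.75 ng/ml after values had been seen.

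Levels were summed UMIs in CPM, with exact Poisson intervals, exact conditional intervals for ratios and exact binomial intervals for shares (95%), which do not cover variation between cultures. Log2 ratios used a pseudocount of 1 CPM. Genes were called from 20 CPM and a ratio of 1.5 in each of 3 libraries with at least 20 members. With at most 1 Cdh1 UMI 4 libraries had that many members and all had to meet the rule. T, Tbx6 and Cdh1 were left out. Named genes were those of 32 lists, and the 15 (others), 10 (each T-high population) and 8 (dose) largest ratios in each direction among called genes, predicted genes left out. Ranking used the mean log2 ratio of the 4 libraries. Cells were thinned to 10000 UMIs for shares, which left out 1 member. The call rule was also run on simulated data, but no result of that run is given here and no statement rests on it. Positions are from GENCODE vM21 (GRCm38), which held 32158 of 32285 gene identifiers. Python 3.11 was used with NumPy, SciPy and pandas. Alternatives were other thresholds of the rule, depth, scaling and left-out libraries. A changed threshold on T, Tbx6 or Cdh1 also changed the T-high comparison populations, which follow the same thresholds. The AZD4547 library was used only for the count of members. Values of some genes are not reported here.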

Additional observations from a re-analysis of the deposited data

Results flagged for a closer look

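For 8 genes the ratio of members to comparison cells had opposite directions in different libraries, by at least 1.5 times each way and beyond counting error. Only genes kept for naming were searched, with at least 5 CPM in either population and against each of the comparison populations. The count therefore has no share over all genes beside it. With 1 library per dose the difference between doses was not tested. Against the other cells, Pdgfra, a receptor of mesenchyme, had a ratio of 2.24 (1.63 to 3.02) in the 0.75 ng/ml library but of 0.640 (0.479 to 0.840) in the 3 ng/ml library. Foxf1, a factor of lateral plate and extraembryonic mesoderm, had ratios of 2.83, 0.640 and 0.551 in the order of the 3 FGF2 doses. For Mmp2, a matrix protease gene, the ratio was 1.72 with 0.75 ng/ml FGF2 but 0.637 with 12 ng/ml. Ppp4r4 had 1.53 in the lowest dose of FGF2 but 0.655 in the middle dose. The immediate early gene Fos had a ratio of 0.286 in the lowest dose, from 7 UMIs in members, but of 1.72 in the middle dose. Against T-high Tbx6-positive cells, which numbered 22 with 0.75 ng/ml FGF2, the ratio of Sprr2a3 was 0.509 in that library but 2.18 with 12 ng/ml. Defa30 had ratios of 0.525, 1.5 and 1.86 in the order of dose. For Tdgf1 the ratio was 0.239 in the middle dose but 1.51 in the highest, where 13 members held its UMIs.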

How the results depend on the processing

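Thresholds of the rule moved the share of members (no FGF2, 0.75, 3 and 12 ng/ml) but not its order of doses. With at least 12 T UMIs it was 0.531, 2.97, 5.36 and 4.41%, with at least 5 it was 2.36, 9.39, 15.7 and 13.9%, and with at least 3 after thinning to 10000 UMIs 1.85, 7.32, 16.7 and 15.1%. With no Tbx6 UMI it was 4.04, 6.92 and 5.65%, and with at most 1 Cdh1 UMI 6.86, 15 and 12.1%, at 0.75, 3 and 12 ng/ml. Against the other cells, genes higher and lower in members numbered 15 and 16 at a minimum of 50 CPM, 234 and 2171 without a minimum, 3 and 17 at a ratio of 2, and 8 and 16 against other cells with a T UMI, and 105 were lower at a minimum of 10 CPM. Against T-high Tbx6-positive cells 17 were lower with no Tbx6 UMI and 12 with at most 1 Cdh1 UMI. The latter had to be met in 4 libraries, since the library without FGF2 then held 20 members. The Tbx6-positive cells changed as well, because the T-high populations follow the same thresholds. The 917 genes that differed between members at 12 ng/ml and without FGF2 became 1476 with at least 12 T UMIs and 139 with 0.75 ng/ml in place of no FGF2. With at least 12 T UMIs only 9 members were left without FGF2. Leaving out 1 of the 3 libraries gave 37 to 50 higher and 60 to 93 lower genes against the other cells, 37 to 42 and 141 to 179 against T-high Cdh1-positive cells, and 32 to 43 and 36 to 42 against T-high Tbx6-positive cells; fewer libraries have to meet the rule then. Of the values of named genes under the alternatives, 280 stayed within 1.5 times, 50 moved and 0 reversed. Of 30 named genes 27 moved against other cells with a T UMI, 9 with at most 1 Cdh1 UMI and 9 without the library that received no FGF2. List medians were recomputed only with at least 12 T UMIs, no Tbx6 UMI, at most 1 Cdh1 UMI and at most 5% mitochondrial UMIs, where all 124 stayed, and of shares of cells with a UMI 219 moved and 117 stayed at other depths. The cause of the other moves was not tested. Members and comparison cells of a library form pairs, but no paired test was run on them, since the selection itself separates them. The 16 members without FGF2, single cultures, undetected doublets and the chance that a Cdh1 mRNA was missed limit these values.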
